A study of Homo sapiens with 6 samples.

Results

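Keratin genes were read across 6 libraries of MDA-MB-231 cells, a human triple-negative breast cancer line that is commonly described as mesenchymal. The genes were the 8 rows of the deposited count table that carry the symbols KRT7, KRT8, KRT10, KRT17, KRT18, KRT19, KRT80 and KRT81, out of 16362 genes in all, and TMEM99 was read beside them because it overlaps KRT10 on the opposite strand. The table held 22 keratin rows, so 14 other keratins were not in this set, and 11 of those 14 had at most 3 counts in any library. The 3 control libraries had no agent per the labels. The 3 others came from cells given CTI-2, a compound known here only by its code name. All 6 share the cell line, a time of 24 h and an Oxford Nanopore cDNA-PCR library. In such a library a read covers much or all of a cDNA molecule. The sources used here give neither the dose of CTI-2 nor a vehicle for the controls, and none ties the libraries to separate cultures, so p-values may measure technical spread only.

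Keratins are the intermediate filament proteins of epithelial cells. They assemble only as mixed polymers, in which an acidic type I chain pairs with a basic type II chain, and the filaments are tied to desmosomes and hemidesmosomes by plakin proteins. KRT8 and KRT18 are the classic pair of simple epithelia such as the luminal cells of the breast, where KRT7 and KRT19 are also made, whereas KRT17 is known from basal cells and injured epithelium, KRT10 from differentiated epidermis, and KRT81 from the hair shaft. Carcinoma cells that take on mesenchymal features are widely described as losing keratins and gaining vimentin, which is why this family is of interest in a study whose title names epithelial-mesenchymal transition.

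The type I genes in the set are KRT10, KRT17 and KRT19 on chromosome 17 and KRT18 on chromosome 12, and the type II genes are KRT7, KRT8, KRT80 and KRT81, all on chromosome 12. In GENCODE 29 on GRCh38, KRT17 (ENSG00000128422) spans 41619441 to 41624842, KRT19 (ENSG00000171345) 41523617 to 41528308 and KRT10 (ENSG00000186395) 40818117 to 40822595, all on the minus strand of chromosome 17. On chromosome 12, KRT18 (ENSG00000111057) spans 52948871 to 52952901 on the plus strand, and KRT81 (ENSG00000205426) 52285913 to 52291534 and KRT80 (ENSG00000167767) 52168996 to 52192000 on the minus strand. The lengths deposited for KRT7 (ENSG00000135480), KRT8 (ENSG00000170421) and TMEM99 (ENSG00000167920) differ from their GENCODE 29 spans, so no gene coordinates are given for them. The principal transcripts have 6 to 9 exons and lengths of 1390 bases for KRT19 to 3859 bases for KRT80.

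KRT81 has near-identical relatives beside it, which bears on how its reads can be assigned. Its coding sequence of 1515 bases aligned to that of KRT86, another hair keratin gene, over 1448 bases with 94.5% identity and an identical run of 605 bases, and to that of KRT83 with 93.4% identity. Of the 80 bases that differ between KRT81 and KRT86, 50 lie at the third position of a KRT81 codon. The stretch of 60 aligned coding bases without a gap in which the most bases differ is shown. Gaps in the alignment and bases outside the coding sequence were not compared. It covers coding bases 1249 to 1308 of both genes, counted from 1 at the start codon and read from the GENCODE 29 transcripts KRT81-201 and KRT86-202, 5′ to 3′, and capitals mark the 14 bases that differ.
KRT81: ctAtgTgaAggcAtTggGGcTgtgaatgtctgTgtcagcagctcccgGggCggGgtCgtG
KRT86: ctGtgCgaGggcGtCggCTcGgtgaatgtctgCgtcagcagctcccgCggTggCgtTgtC
The other members are less alike: KRT17 and KRT16 shared 82.0% of aligned coding bases, KRT8 and KRT7 76.8%, and KRT18 and KRT19 69.2%. KRT8 and KRT18 instead have processed copies elsewhere in the genome, with 50 and 67 numbered pseudogenes in GENCODE 29, against 8 for KRT17 and 5 for KRT19. Of these pseudogenes 0 have a row in the count table. No source used here says how the counting treated reads that fit a gene and its copy, so the counts of these genes are uncertain to that extent.

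TMEM99, which RefSeq lists as the noncoding gene KRT10-AS1, starts inside KRT10. The window from 250 bases before to 50 bases from its first listed start is shown because almost all of it is KRT10 coding sequence read from the other strand. It is chr17:40818895-40819194 on the plus strand (RefSeq, GRCh38.p14), 5′ to 3′, and capitals mark the 267 of 300 bases that lie within the coding exons of transcript KRT10-201.
KRT10-AS1 start window: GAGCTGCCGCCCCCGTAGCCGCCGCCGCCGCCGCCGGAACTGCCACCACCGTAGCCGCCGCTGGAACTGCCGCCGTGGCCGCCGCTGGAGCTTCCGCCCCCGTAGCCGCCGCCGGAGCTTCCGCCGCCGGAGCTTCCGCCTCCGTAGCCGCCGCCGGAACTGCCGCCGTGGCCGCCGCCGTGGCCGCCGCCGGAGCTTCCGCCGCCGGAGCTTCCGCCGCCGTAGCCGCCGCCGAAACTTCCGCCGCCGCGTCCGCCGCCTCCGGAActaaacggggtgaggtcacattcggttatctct
The window has a GC content of 76.7%. It runs through the part of KRT10 that encodes a glycine-rich tail.

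Total counts were 2208261 to 3929532 per library, so that 3 counts equal 0.763 to 1.36 CPM (each count as a share of its library total, scaled to 1000000). Control 2 was the deepest library, and leaving it out changed the number of genes called in the whole table from 791 to 1610. The number was 453 without control 1, 552 without control 3 and 492, 450 and 400 on omission of treated library 1, 2 or 3. With all libraries thinned to the smallest total it was 775. Of 10 genes by which MDA-MB-231 is commonly described, 9 had at least 10 counts in every library and AXL had 7 to 22. VIM, the vimentin gene, had 32 to 74 counts, or 18.7 ± 0.320 CPM in controls (SD, n = 3), which is low for a line described as rich in vimentin. The identity of the cells was not tested, and the line is named here as the labels give it. Of the luminal breast markers ESR1, GATA3, CDH1 and CLDN3 had at most 3 counts in any library, and of the keratinocyte markers KRT5, KRT14 and TP63 did. Other luminal markers had more: EPCAM 18 to 40 counts per library, CLDN4 16 to 34, CLDN7 26 to 62 and ERBB2 11 to 42. The keratinocyte marker KRT16 had 24 to 38. Summed over each list, the MDA-MB-231 genes held 3995 to 4310 CPM in controls and 4591 to 4717 CPM in treated libraries, the luminal genes 42.0 to 46.8 and 37.6 to 43.1 CPM, and the keratinocyte genes 10.01 to 12.8 and 9.44 to 10.9 CPM. Most of the first sum came from S100A4 (mean 2387 CPM in controls and 2760 CPM in treated libraries) and LGALS1 (1106 and 1198 CPM). VIM (18.7 and 15.7 CPM), MSN (185 and 168 CPM) and CDH2 (16.5 and 13.8 CPM) had lower treated means, and the other listed genes higher ones. The VIM difference did not pass (log2 fold change -0.20, edgeR adjusted p = 0.574). Of other cell types, summed fibroblast markers stood at 68.7 to 110.5 CPM in controls and 72.9 to 76.1 CPM in treated libraries. COL1A2, COL3A1 and DCN were at 3 counts or fewer, while COL1A1 had 128 to 227 counts per library and PDGFRB 27 to 57. The 4 blood cell markers in the table were all at 3 counts or fewer. Of the endothelial markers in the table, PECAM1 had 5 to 18 counts per library and CDH5 2 to 7. The part of these marker levels in the keratin results was not tested.

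In controls the keratin message was dominated by KRT17. The 8 genes together took 0.248% of counts in control 1 (95% exact binomial interval 0.242 to 0.254%), 0.263% in control 2 (0.258 to 0.268%) and 0.244% in control 3 (0.238 to 0.250%), intervals that cover counting error only. KRT17 alone made up 65.0, 62.5 and 64.0% of these keratin counts in controls 1 to 3. KRT81 was the main type II gene, with 80.7, 82.7 and 80.04% of type II keratin counts. Type I counts exceeded type II counts 2.90-fold, 2.52-fold and 2.79-fold.

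Per kb of transcript, the mean level in controls ran, from high to low, through KRT17 (973 ± 25.5 CPM per kb), KRT81 (285 ± 30.8), KRT18 (138 ± 2.94), KRT8 (39.3 ± 1.003), KRT7 (17.5 ± 1.59), KRT10 (7.55 ± 0.558), KRT80 (3.28 ± 0.652) and KRT19 (2.62 ± 0.265; SD, n = 3 throughout). Each of the first 6 genes was above the next in all 3 libraries, and only KRT80 and KRT19, the lowest pair, overlapped on this scale. KRT8 and KRT18, the simple-epithelial partners, were both present, at levels far below KRT17, while KRT19 was close to the limit of detection.

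**Figure D1:**
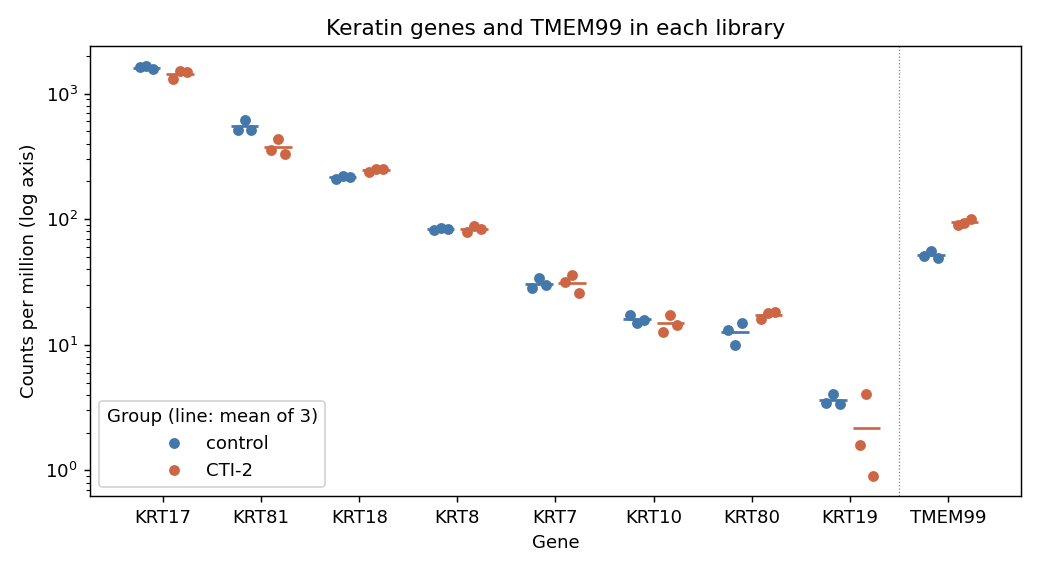
CPM (log axis) of the 8 keratin genes, ordered by their mean in controls, and of TMEM99 in each of the 3 control and 3 CTI-2 libraries; points are libraries and lines are means. KRT17 lies between 1311 and 1645 CPM in all 6 libraries, the groups of KRT17, KRT81, KRT18, KRT80 and TMEM99 do not overlap, and KRT19 lies between 0.906 and 4.07 CPM.

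After 24 h of CTI-2, KRT81 fell 1.43-fold and no other keratin of the set passed the test, while TMEM99 rose 1.85-fold. KRT19 was too thinly counted to be tested. By the quasi-likelihood test of edgeR, with 0.05 as the limit on adjusted p, 1 of the 7 tested keratins was lower, 0 were higher and 6 did not pass. Among all 9848 tested genes 8.03% were called, 4.64% lower and 3.39% higher, so a single call in 7 genes is near that background. At an unadjusted p under 0.05 there were 3 of the 7, of which KRT18 and KRT80 had positive and KRT81 negative log2 fold changes, against 23.9% over the whole table. By DESeq2 and by limma-voom there was also 1 keratin called, KRT81. The median log2 fold change was 0.05 over the tested keratins and -0.01 over all tested genes. These are bulk measurements, in which fewer cells of a type and less RNA per cell cannot be told apart.

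KRT81 encodes a type II hair keratin. Its level was 514, 617 and 515 CPM in controls 1 to 3 and 353, 434 and 331 CPM in CTI-2 libraries 1 to 3, from 730 to 2426 counts per library. The groups did not overlap: control 2 was the highest library and CTI-2 library 2 the highest of the treated. The log2 fold change was -0.51 (SE 0.12, 95% interval -0.76 to -0.27, edgeR adjusted p = 0.00745), between means of 549 ± 59.3 CPM for controls and 373 ± 54.6 CPM for treated libraries (SD, 3 libraries each). KRT81 missed the threshold when CTI-2 library 1 was left out (edgeR adjusted p = 0.0514) and likewise for CTI-2 library 3 (0.0846), and its log2 fold change was -0.36 without control 2.

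The close relatives of KRT81 had too few counts for a precise comparison. KRT86, whose span holds all of KRT81 on the opposite strand without sharing an exon, had 13, 11 and 9 counts in controls and 7, 9 and 8 with CTI-2 (log2 fold change -0.33, 95% interval -1.18 to 0.52, edgeR adjusted p = 0.683). KRT81 counts exceeded KRT86 counts 103-fold, 221-fold and 135-fold in the controls and 159-fold, 143-fold and 91.3-fold in the treated libraries, in replicate order. With the counts of KRT81 and KRT86 summed as 1 gene the log2 fold change was -0.51 (edgeR adjusted p = 0.00725). KRT83 had 0 counts in all controls and at most 2 in a CTI-2 library.

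KRT17, the type I gene with the most counts, encodes a keratin of basal cells that is induced in stressed epithelium. It stood at 1615, 1645 and 1562 CPM in controls and 1311, 1516 and 1490 CPM in treated libraries. As shares of library totals, all treated libraries were below all controls, with CTI-2 library 1 the lowest. The scaled difference was small and did not pass the test (log2 fold change -0.11, 95% interval -0.35 to 0.12, edgeR adjusted p = 0.605). The ratio of KRT81 to KRT17 counts was 0.318, 0.375 and 0.330 in controls and 0.270, 0.287 and 0.222 with CTI-2, without overlap. This ratio pairs a called gene with an uncalled one and was chosen after its values were seen.

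KRT18 is the type I partner in simple epithelia. It stood at 211, 220 and 215 CPM in controls and 239, 253 and 250 CPM in treated libraries, and every treated library was above every control. The difference did not pass over all genes (log2 fold change 0.24, SE 0.11, 95% interval 0.03 to 0.46, edgeR adjusted p = 0.149). Without control 2 KRT18 was called higher (log2 fold change 0.32, adjusted p = 0.0156). KRT8, its type II partner, stood at 81.3, 85.5 and 83.8 CPM in controls and 79.3, 88.6 and 83.8 CPM in treated libraries, and the groups overlapped (log2 fold change 0.05, 95% interval -0.19 to 0.29, edgeR adjusted p = 0.843).

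The balance within this pair was alike in the 3 controls. For each KRT8 count the controls had 2.59, 2.57 and 2.57 KRT18 counts and the treated libraries 3.01, 2.85 and 2.98, so all treated libraries lay above all controls. On the log2 scale the ratio of KRT8 to KRT18 was -1.37 ± 0.00729 for controls and -1.56 ± 0.0417 for treated libraries (SD, 3 libraries each), a difference of -0.19 given as a description, with no test. The ratios rest on 185 to 336 KRT8 counts and 506 to 864 KRT18 counts per library. Counting error at such counts is larger than the control SD, and it was not computed, so the SD is no measure of how firm the difference is. The annotated spans of KRT8 and KRT18 overlap on opposite strands, with 525 exonic bases in common, and no source used here says if strand was used in counting, so the ratio is uncertain.

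**Figure D2:**
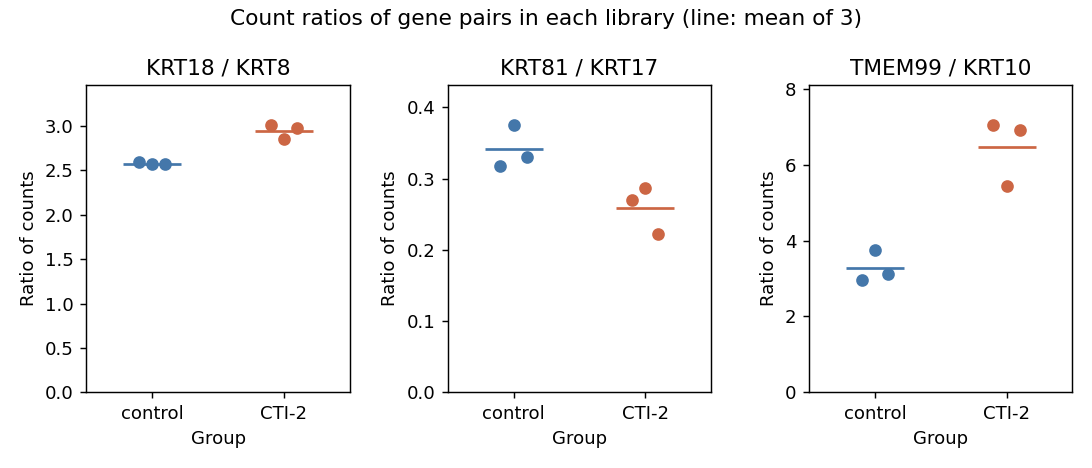
Ratio of counts for KRT18 to KRT8, KRT81 to KRT17 and TMEM99 to KRT10 in each library, with lines at the mean of 3 libraries per group and axes that start at 0. The groups do not overlap in any of the 3 panels: the control ratios of KRT18 to KRT8 lie between 2.57 and 2.59 and the treated ones between 2.85 and 3.01. The ratios of KRT81 to KRT17 and TMEM99 to KRT10 were chosen after their values were seen. Each of these pairs a called gene with an uncalled one, so their separation is a description only.

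KRT7, a type II keratin of glandular and ductal epithelia, stood at 28.5, 33.8 and 29.8 CPM in controls and 31.4, 35.7 and 25.8 CPM in treated libraries. CTI-2 libraries 2 and 3 were the highest and the lowest of all 6, so the groups overlapped (log2 fold change 0.06, 95% interval -0.28 to 0.39, edgeR adjusted p = 0.882). In GENCODE 29, from which the deposited length of KRT7 differs, part of its span overlaps that of KRT86, without a shared exon.

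KRT80, a type II keratin found in many epithelia, stood at 13.1, 9.92 and 14.9 CPM in controls and 16.2, 17.9 and 18.1 CPM in treated libraries, from 34 to 53 counts per library. The treated libraries were all above the controls, of which control 2 was the lowest. The estimate was of a size similar to that of KRT81 but in the other direction, and it did not pass (log2 fold change 0.53, SE 0.21, 95% interval 0.10 to 0.96, edgeR adjusted p = 0.11). When a library was left out it was 0.41 to 0.63, lowest without control 2. KRT19, a type I keratin of simple and ductal epithelia, had 9, 16 and 8 counts in controls and 5, 12 and 2 in CTI-2 libraries 1 to 3, the last below the floor of 3 counts. In a fit without the low-count filter its log2 fold change was -0.65 (SE 0.46, adjusted p = 0.522), so a difference was not detectable at this depth.

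KRT10, the type I keratin of suprabasal epidermis, and TMEM99 parted. KRT10 had 45, 59 and 37 counts in controls and 40, 51 and 32 with CTI-2, or 17.3, 15.01 and 15.7 CPM and 12.7, 17.2 and 14.5 CPM. The groups overlapped and KRT10 did not pass (log2 fold change -0.07, 95% interval -0.49 to 0.36, edgeR adjusted p = 0.891). TMEM99 stood at 51.2, 56.2 and 48.9 CPM in controls and 89.4, 93.4 and 100.1 CPM in treated libraries, and every treated library was above every control.

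TMEM99 rose, with means of 52.1 ± 3.73 CPM for controls and 94.3 ± 5.39 CPM for treated libraries (SD, 3 libraries each; log2 fold change 0.89, SE 0.13, 95% interval 0.63 to 1.14, edgeR adjusted p = 1.63e-05), and it passed whichever library was left out. For each KRT10 count the controls had 2.96, 3.75 and 3.11 TMEM99 counts and the treated libraries 7.05, 5.43 and 6.91. That ratio was chosen after its values were seen. The annotated spans overlap by 3490 bases, but the exons share only 56 bases, out of 2144 exonic bases of KRT10 and 2362 of TMEM99. Reads of the shared bases may have been given to either gene, since no source used here says if strand was used. Summed as 1 gene, KRT10 and TMEM99 had a log2 fold change of 0.72 (edgeR adjusted p = 0.000183).

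**Figure D3:**
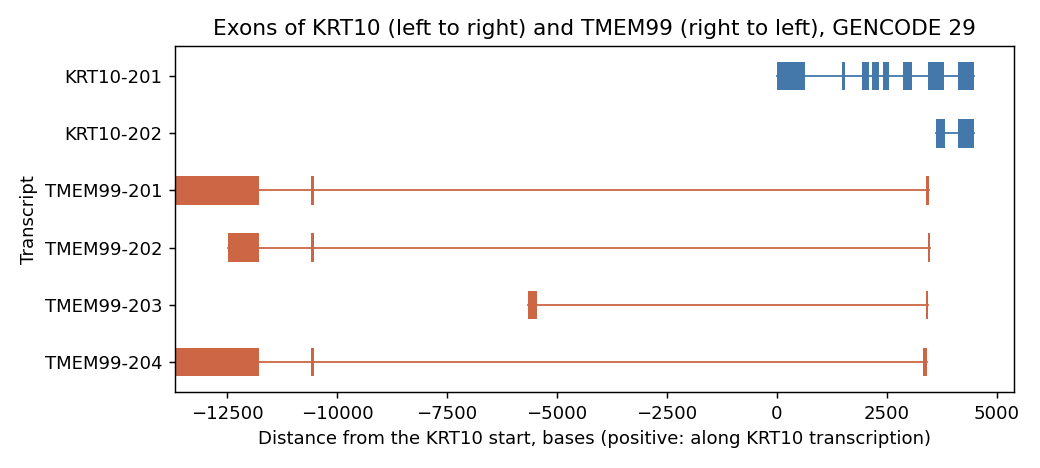
Exons (boxes) and introns (lines) of the GENCODE 29 transcripts of KRT10 (blue, transcribed left to right) and TMEM99 (orange, transcribed right to left), by distance in bases from the KRT10 start. TMEM99 begins within KRT10 at a short first exon, and its other exons lie upstream of the KRT10 start, so that only 56 exonic bases are shared.

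**Figure D4:**
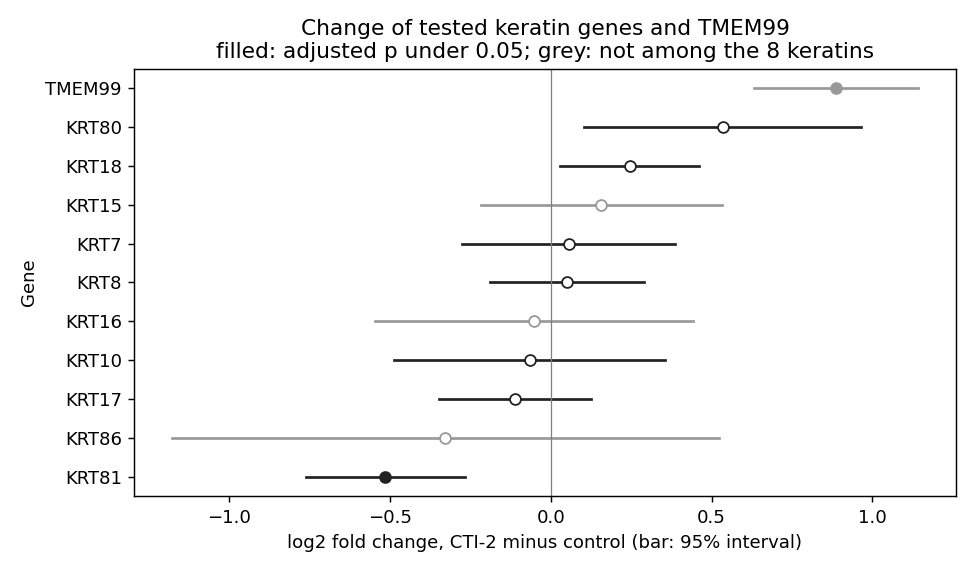
The log2 fold change of CTI-2 minus control for the 10 tested keratin genes and TMEM99, with 95% intervals; filled points passed an adjusted p of 0.05 and grey marks genes outside the set of 8. KRT81 lies at -0.51 and TMEM99 at 0.89, and the other genes are open points between -0.33 and 0.53.

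The 8 genes together took 0.204% of counts in CTI-2 library 1 (95% exact binomial interval 0.199 to 0.209%), 0.237% in library 2 (0.231 to 0.242%) and 0.221% in library 3 (0.215 to 0.228%), all below the controls. Type II genes summed to 676 ± 61.5 CPM for controls and 505 ± 63.01 CPM for treated libraries, and type I genes to 1842 ± 43.9 and 1703 ± 122 CPM (SD, 3 libraries each). The share of KRT81 among type II keratin counts was 80.04 to 82.7% in controls and 72.1 to 75.3% with CTI-2. Counts of type I exceeded those of type II 3.26-fold, 3.10-fold and 3.83-fold in CTI-2 libraries 1 to 3, above all controls. KRT17 made up 64.1, 64.05 and 67.3% of the keratin counts with CTI-2, which overlaps with its share in controls. In CPM, 4 of the 7 tested keratins had groups that did not overlap, KRT17 and KRT81 lower and KRT18 and KRT80 higher with CTI-2, against 28.8% of all tested genes. These shares and CPM rest on library totals, without the scaling factors (TMM) of the test. The factors were 1.04, 0.958 and 1.06 for controls 1 to 3 and 0.980 to 0.983 for treated libraries. Separation of the groups, as for KRT17 and the 8 genes together, therefore depends on the scale.

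Of the keratins outside the set, KRT15 and KRT16 had enough reads to be tested besides KRT86. KRT15, a type I keratin of basal cells, stood at 22.9 ± 4.97 CPM in controls and 25.2 ± 1.16 CPM in treated libraries (log2 fold change 0.16, 95% interval -0.22 to 0.53, edgeR adjusted p = 0.651). KRT16, which like KRT17 is induced in injured epidermis, stood at 10.4 ± 1.31 and 9.73 ± 1.03 CPM (log2 fold change -0.05, 95% interval -0.55 to 0.44, edgeR adjusted p = 0.927). KRT5 and KRT14, the classic basal pair, had at most 1 and 3 counts in any library.

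Genes that work with keratins are given by list, beside the 4.64% of all tested genes that were lower and the 3.39% that were higher. Of 21 listed junction and plakin linkers, which attach the filaments to the cell surface, 14 were tested and 2 fell, none rose and 12 did not pass, with 7 positive and 7 negative log2 fold changes and a median of -0.03. The list was not tested against that background. PLEC, which encodes the filament linker plectin, stood at 45.5, 24.9 and 37.03 CPM in controls and 19.98, 23.9 and 19.02 CPM in treated libraries. The treated libraries were all below the controls, of which control 2 was nearest to them (log2 fold change -0.68, edgeR adjusted p = 0.017). DST, the gene of the plakin dystonin, stood at 145, 103 and 176 CPM in controls and 110, 95.4 and 95.6 CPM in treated libraries, where control 2 lay below CTI-2 library 1 (log2 fold change -0.42, edgeR adjusted p = 0.041). DSP, the desmoplakin gene and the most abundant tested linker, stood at 226 ± 32.9 and 177 ± 18.1 CPM (-0.30, edgeR adjusted p = 0.0956), and PERP at 180 ± 16.5 and 136 ± 55.8 CPM (-0.37, adjusted p = 0.624). For PERP only CTI-2 library 1 was low, at 72.0 CPM, against 165 and 172 CPM in CTI-2 libraries 2 and 3. The PLEC call was lost in DESeq2 (adjusted p = 0.0759) and in edgeR when control 1 or treated library 1 or 3 was left out (adjusted p = 0.167, 0.0544 and 0.0584), and with the trend with GC (-0.48, adjusted p = 0.0868) or transcript length removed (-0.55, adjusted p = 0.0621). The DST call was lost in DESeq2 and limma-voom (adjusted p = 0.118 and 0.0804) and in edgeR on omission of control 1, control 3, treated library 2 or treated library 3 (adjusted p = 0.118, 0.22, 0.149 and 0.135). It was also lost with the length trend removed (-0.27, adjusted p = 0.12), with library totals as the scale (0.116), in limma on log2 CPM (0.075 and 0.0769 by pseudocount) and with counts thinned (0.0551).

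Of 15 genes whose products bind or modify keratins 14 were tested, 1 fell, none rose and 13 did not pass, with 10 negative log2 fold changes and a median of -0.14. A single call in 14 genes is near the 8.03% called over all genes. SFN, which encodes the epithelial 14-3-3 protein, stood at 215, 233 and 222 CPM in controls and 171, 168 and 155 CPM in treated libraries. All treated libraries were well below the controls (log2 fold change -0.39, edgeR adjusted p = 0.0206), but SFN missed without CTI-2 library 1, 2 or 3 (adjusted p = 0.0637, 0.0957 and 0.146). With the GC trend removed SFN had -0.26 (adjusted p = 0.151). The autophagy receptor gene SQSTM1 stood at 1761 ± 124 and 1443 ± 507 CPM (-0.23, edgeR adjusted p = 0.673) and YWHAE, another 14-3-3 gene, at 751 ± 2.56 and 831 ± 19.2 CPM (0.20, edgeR adjusted p = 0.278). For SQSTM1 only CTI-2 library 3 was low, at 858 CPM, against 1750 and 1720 CPM in CTI-2 libraries 1 and 2.

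Of 17 other intermediate filament genes 7 were tested in edgeR and none passed, with 6 negative log2 fold changes, a median of -0.20, and 1 at an unadjusted p under 0.05. LMNA, the gene of the nuclear lamins A and C, stood at 384 ± 39.3 and 320 ± 34.8 CPM (-0.21, edgeR adjusted p = 0.251) and LMNB2 at 55.9 ± 0.663 and 52.03 ± 3.14 CPM (-0.05, edgeR adjusted p = 0.848). Of 17 listed epithelial regulators only 5 were tested in edgeR and none passed (median 0.06, 1 at an unadjusted p under 0.05). SP1 stood at 45.7 ± 9.13 and 42.6 ± 3.35 CPM (-0.02, edgeR adjusted p = 0.947) and TFAP2A at 25.2 ± 9.99 and 17.5 ± 0.723 CPM (-0.45, edgeR adjusted p = 0.188). DESeq2 and limma-voom also called 0 genes of both lists. At an unadjusted p under 0.05 in edgeR there were 4 linkers, all lower, and 6 keratin-binding genes, 3 higher and 3 lower, against 23.9% over the whole table. DESeq2 called 0 linkers, and 1 keratin-binding gene higher and 2 lower. By limma-voom 1 linker was lower, and 1 keratin-binding gene was higher and 3 were lower.

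**Figure D5:**
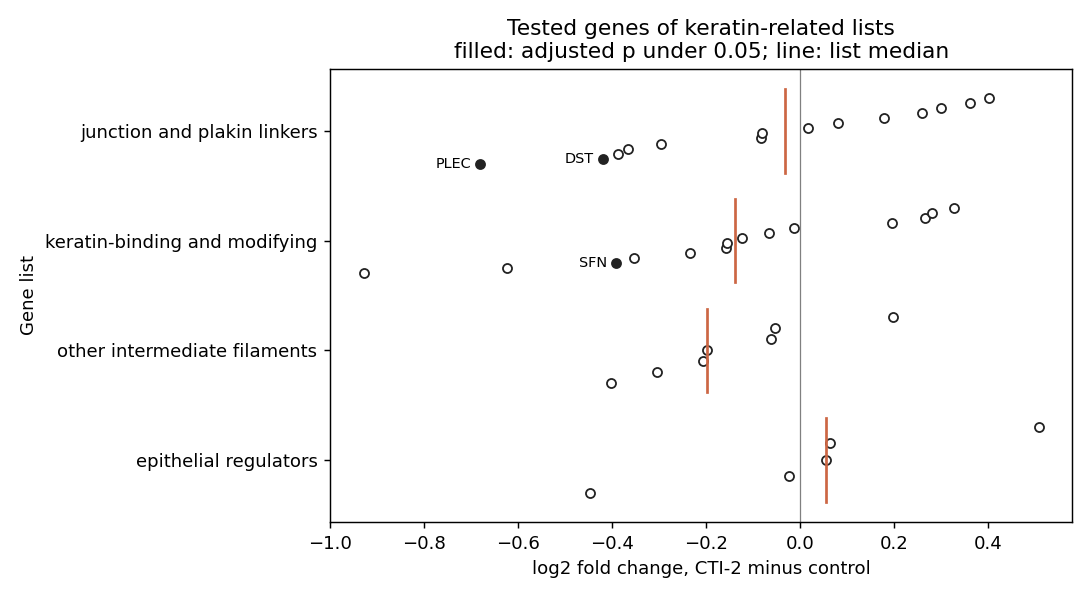
The log2 fold change of CTI-2 minus control for each tested gene of 4 keratin-related lists; filled points, labelled by gene, passed an adjusted p of 0.05 and lines mark list medians. The 3 called genes (PLEC, DST and SFN) lie between -0.68 and -0.39, and the list medians lie between -0.20 and 0.06.

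The genes whose values followed KRT17 and KRT81 most closely were found by the distance between log2 CPM profiles over the 6 libraries, each centred on its own mean. Nearest to KRT81 were TMED1 (log2 fold change -0.53, edgeR adjusted p = 0.00757), WDR62 (-0.45, adjusted p = 0.278) and RNH1 (-0.56, adjusted p = 0.00399), at distances of 0.0936, 0.161 and 0.163 against a median of 0.941 over all tested genes. Nearest to KRT17 were SLC25A3, OGG1 and YWHAB, at 0.0413, 0.0542 and 0.0736 against a median of 0.616. These are descriptions over 6 libraries that share depth and composition.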

How the data were processed

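Gene expression was measured in 3 control and 3 CTI-2 libraries, grouped by the agent in the labels. Per the labels' protocols, RNA was taken in Trizol and libraries were made with an Oxford Nanopore cDNA-PCR kit; the submitters' processing notes name minimap2. Its version, the genome build, annotation, counter and use of strand were not given in the sources used here. Whole-number counts of reads for every gene were deposited by the authors, with a gene length and CPM that equal each count divided by its library total.

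Counts were filtered with edgeR's filterByExpr (9848 of 16362 genes kept), then normalized (TMM) and fitted in edgeR 4.0.16 with its quasi-likelihood test (R 4.3.3), adjusted by Benjamini-Hochberg over all genes tested. The SE came from the fold change and the F statistic. CPM are mean ± SD. Transcript lengths, GC, exons and coding sequences came from GENCODE 29 (principal basic transcript, the longest of equals); gene coordinates are given only where the deposited length is the span in that annotation, and the start window of KRT10-AS1 has those of the RefSeq table. Of the 8 keratins 2 had a start window in the RefSeq table. The fit was tested on simulated counts. Pairs of replicates differed by more than counting noise (chi-square over its degrees of freedom 1.68 to 6.03).

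The genes, the lists and the tests were chosen with earlier results of these data known. Named were the 8 keratins and TMEM99, other keratins with at least 10 counts in a library or beside a member, up to 4 called and 2 abundant uncalled genes of each list, and the 3 genes nearest in profile to the most abundant keratin of each type. A further list is not reported here. KRT5, KRT14 and the other markers belong to the marker lists. The ratios of KRT81 to KRT17 and TMEM99 to KRT10 were chosen after their values were seen. Alternatives were other scaling, filters, DESeq2 1.42.0, limma 3.58.1 (voom, or log2 CPM with a pseudocount of 1 or 0.5), a block for replicate number, omission of each library and an adjusted p of 0.01. Chosen after seeing the data were removal of trends with transcript length or GC (lowess span 0.3, 93.6% of tested genes), thinning to 2208261 counts and summing overlapping genes.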

Additional observations from a re-analysis of the deposited data

How the results depend on the processing

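KRT81 was lower and TMEM99 higher under every alternative run, with log2 fold changes of -0.63 to -0.36 and 0.81 to 1.01. KRT81 missed the threshold only without CTI-2 library 1 or 3; with each library's GC trend removed it had -0.40 (adjusted p = 0.046). The number of keratins called was 0 to 2 when a library was left out, and 1 otherwise. Over all genes, DESeq2 called 498, 264 higher and 234 lower, and an adjusted p of 0.01 left 306, 107 higher and 199 lower. Leaving out a library gave 400 to 1610 calls, 113 to 957 higher and 287 to 653 lower. Linkers called lower were 0 to 4 and keratin-binding genes 0 to 4, with 0 to 3 of the last higher. The cause was not tested. KRT10 summed with TMEM99 had 0.72, by construction of the sum; in the deposited CPM, 0 neighbours in the order of keratin levels overlapped in controls, against 1 per kb. The KRT8 to KRT18 difference was -0.22 to -0.18 when a library was left out.

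Same-numbered control and CTI-2 libraries did not deviate together (r = -0.0487, 0.00719 and -0.122 across genes). Control 3 and CTI-2 library 1, of different numbers, had r = 0.136. Whether same-numbered libraries share a culture or batch was not tested. With the replicate block there were 942 calls and KRT81 had -0.51 (adjusted p = 0.00186). At these depths KRT19, KRT86 and KRT83 allow no statement on change.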
